A study of Homo sapiens with 179 samples.

Results

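The SR and hnRNP genes encode RNA-binding proteins that decide which splice sites of a transcript are used. Members were chosen by symbol, as every gene whose symbol is SRSF with a number, TRA2A, TRA2B or begins with HNRNP. The rule found 34 of the 19084 genes in the deposited tables, of which 14 formed the SR family and 20 the hnRNP family. No measured value enters that rule, but the families were selected on results of these same data, their levels and fold changes between these groups. Counts of members called are therefore descriptions, set beside the share of all genes called.

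SR proteins carry RNA recognition motifs and a domain rich in arginine-serine dipeptides. They bind exonic enhancers and recruit the splicing machinery, and kinases that phosphorylate that domain control their location and activity. The hnRNP proteins coat nascent RNA, and several of them silence exons or counter SR proteins at the same sites. Many members of both families limit their own mRNA by including an exon with an early stop codon, which sends the transcript to nonsense-mediated decay. Pluripotent stem cells are known for high expression of splicing factors.

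The cells were H1, an established line of human embryonic stem cells, grown in E8 medium on Matrigel with no treatment or genetic change given. LM-Seq, a protocol that selects polyadenylated RNA and primes reverse transcription with random hexamers, gave Lane 1 (95 libraries), Lane 2 (48), Lane 3 (24) and Lane 4 (6). The TruSeq kit gave H1p43 and H1p16, with 3 libraries each. The labels do not say what the letter p stands for, how H1p43 and H1p16 differ in culture, or which of them the LM-Seq RNA came from. Separate cultures are not named for libraries of a group, so a p-value here is set against library-to-library spread that may be technical. Where H1p43 and H1p16 are pooled as TruSeq, that spread also holds the difference between them. A number that names an LM-Seq library recurs across lanes, and the labels do not say that it marks the same library.

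Library totals ran from 29018106 to 35852646 expected counts in H1p43 and from 23680503 to 30628645 in H1p16. Lane 1 libraries held between 1040671 and 1539277 counts and Lane 2 libraries between 2005736 and 2739084. Lane 3 libraries held 4028607 to 4918577 counts, and Lane 4 libraries 15780078 to 16583048. The stem cell identity was checked against a list of pluripotency markers, of which 11 were in the files and none was at 0 in every library. These markers summed to 13132 to 13809 TPM in Lane 4, 7945 to 7979 TPM in H1p43 and 9606 to 9848 TPM in H1p16. The trophoblast list summed to 17.8 TPM or less in any of these libraries. Other lineage lists were not all that low. The fibroblast list summed to 558 to 956 TPM across these libraries, the neuroectoderm list to 458 to 554 TPM and the mesendoderm list to 45.6 to 93.7 TPM. Within the fibroblast list THY1 alone averaged 387 TPM in H1p43 and 495 TPM in H1p16. TPM are levels scaled by transcript length and library total.

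Both families were abundant in LM-Seq libraries. In Lane 1, HNRNPA1, an exon-silencing protein, ranked 4 among all genes by mean level, with 6311 TPM in its lowest library, a median of 7188 TPM and 9982 TPM in its highest. HNRNPA2B1, which binds RNA for transport and splicing, ranked 11, between 3689 and 7500 TPM with a median of 4378 TPM. HNRNPM and HNRNPH1 followed with medians of 2950 TPM and 2219.6 TPM. Among SR genes SRSF5 stood first at a median of 1185 TPM, ahead of SRSF9 at 862 TPM and SRSF3 at 819 TPM. The lowest levels were those of SRSF8, at a median of 26.5 TPM, and SRSF12, at 2.69 TPM. HNRNPCL1 was listed at 0 in every Lane 4 and TruSeq library and in 94 of the 95 Lane 1 libraries.

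In TruSeq libraries the order of the genes was another one. HNRNPA1 again led, at 3814 ± 3.75 TPM in H1p43 (SD, n = 3), where it held 31.5% of the hnRNP total. In Lane 4 it held 25.6% of that total. SRSF2, a protein of exonic enhancers with a role in transcriptional elongation, led the SR genes in both TruSeq groups, with 16.8% of the SR total in H1p43 and 17.4% in H1p16. In Lane 4 it held 8.94%, below SRSF5 at 17.02%, SRSF9 at 12.8%, SRSF3 at 12.0%, TRA2A at 10.2%, SRSF1 at 10.1% and SRSF10 at 9.40%.

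The first comparison set H1p43 against H1p16 within the TruSeq protocol. The SR genes made up 0.251% ± 0.0015 of all TPM in H1p43, against 0.350% ± 0.0017 in H1p16 (SD, n = 3 each), a ratio of 0.718. The hnRNP genes made up 1.210% ± 0.0019 in H1p43, against 1.38% ± 0.0025 in H1p16, a ratio of 0.879. The number of SR transcripts per hnRNP transcript was 0.208 ± 0.0015 in H1p43, against 0.254 ± 0.0011 in H1p16. No library of either group entered the range of the other in these 3 quantities. In bulk RNA, fewer cells that express a gene and less RNA per cell cannot be told apart.

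Expression was tested per gene with edgeR's quasi-likelihood test over all genes. Calls were made where the p adjusted by Benjamini-Hochberg was below 0.05. Fold changes come from normalized counts, so they can differ from the ratio of the TPM printed beside them. For members in H1p43 over H1p16 they lay below the TPM ratios. Small falls are therefore larger, and rises smaller, than the TPM show. Of the 33 members tested, 30 were lower in H1p43 and 3 were higher. Among all 14574 genes tested, 71.8% were called, 35.4% as lower and 36.4% as higher. The lower members were 12 of 14 SR genes and 18 of 19 hnRNP genes. The median log2 fold change of H1p43 over H1p16 was -0.47 over SR genes, -0.26 over hnRNP genes and 0.01 over all genes. At a minimum change of 1.5-fold, 9 members were called, all lower in H1p43, where 6.07% of all genes were called as lower and 14.2% as higher. The 2 groups did not overlap in TPM for 32 members, against 73.7% of all genes.

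**Figure D1:**
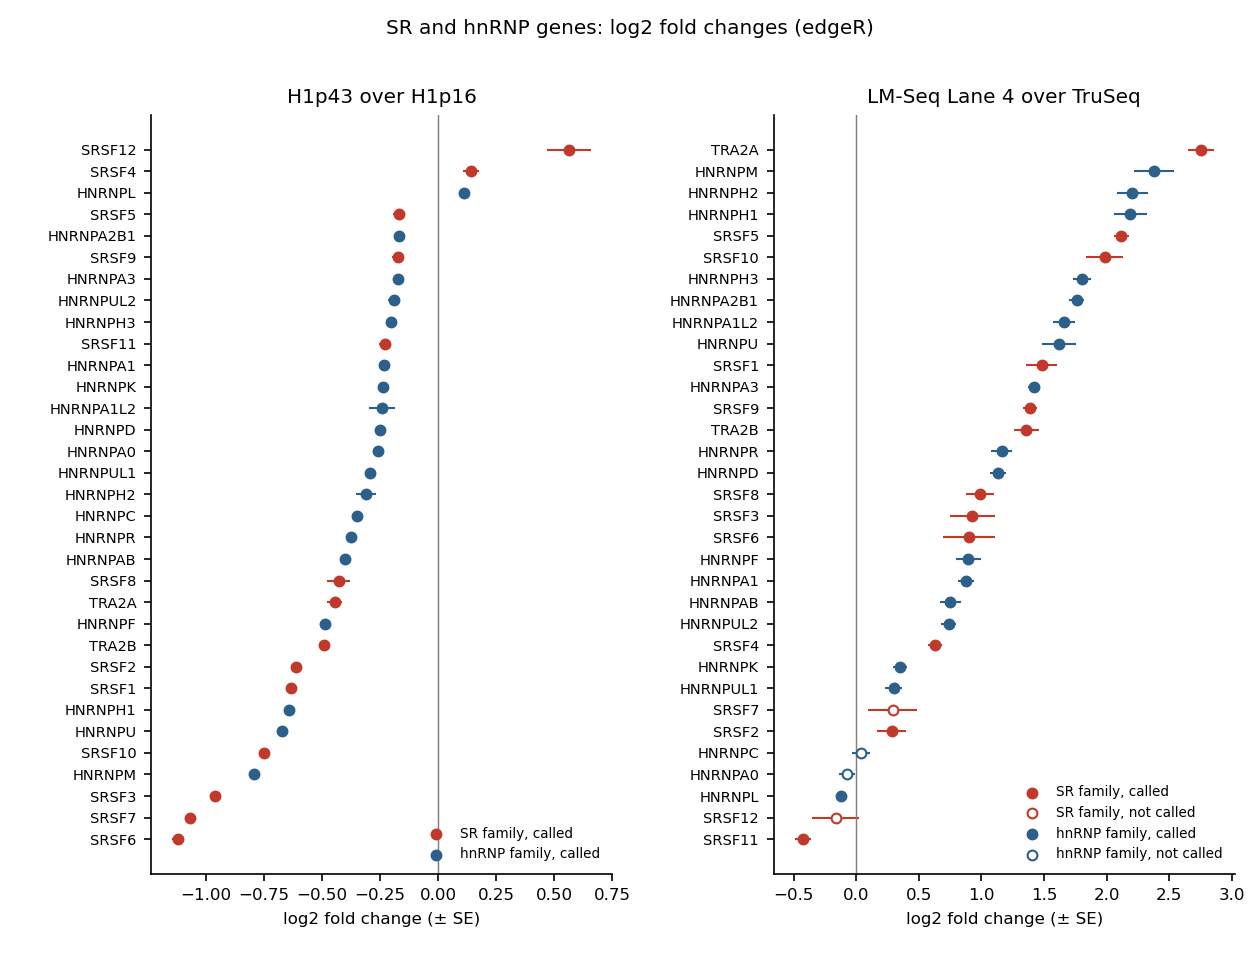
The horizontal axes give log2 fold changes (± SE) of each member for H1p43 over H1p16 (left) and LM-Seq Lane 4 over TruSeq (right), with SR genes in red, hnRNP genes in blue and uncalled genes as open points. On the left 30 of 33 members lie below 0 and SRSF6 is lowest at -1.12, while on the right 27 members are called above 0 and TRA2A is highest at 2.75.

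The SR genes with the largest falls were 4 that differ in structure and use. SRSF6, which acts on exon choice in many transcripts, stood at 88.8, 91.97 and 91.3 TPM in H1p43, against 183, 182 and 183 TPM in H1p16. This was the largest fall of any member, with a log2 fold change of -1.12 ± 0.02 (SE) and an adjusted p of 8e-17 in edgeR. SRSF7, an SR protein with a zinc knuckle, had 210.1, 216 and 212 TPM in H1p43, against 407, 408 and 423 TPM in H1p16. This gave a log2 fold change of -1.07 ± 0.02. SRSF3, the smallest SR protein, had 308, 311 and 312 TPM in H1p43, against 549, 556 and 573 TPM in H1p16. The log2 fold change was -0.96 ± 0.02. SRSF10, an SR-like repressor that is activated by dephosphorylation, had 145.2, 141.9 and 141.9 TPM in H1p43, against 220.2, 225 and 224 TPM in H1p16, a log2 fold change of -0.75 ± 0.02. For each of these 4 genes, the highest H1p43 library lay well under the lowest H1p16 library.

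The promoters of the 3 SR genes that fell most are printed, chosen by the size of those falls alone. They run from 250 bases before to 50 bases after the RefSeq start on GRCh38.p14, at chr20:43457646-43457945 (+ strand) for SRSF6, chr2:38751445-38751744 (- strand) for SRSF7 and chr6:36594112-36594411 (+ strand) for SRSF3. Capitals mark motifs found on either strand.
SRSF6: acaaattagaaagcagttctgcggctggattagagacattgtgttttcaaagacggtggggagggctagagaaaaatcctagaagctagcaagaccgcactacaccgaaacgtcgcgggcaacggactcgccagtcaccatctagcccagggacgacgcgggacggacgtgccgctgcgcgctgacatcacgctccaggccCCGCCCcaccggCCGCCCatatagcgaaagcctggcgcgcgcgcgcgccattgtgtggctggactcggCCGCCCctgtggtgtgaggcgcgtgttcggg
SRSF7: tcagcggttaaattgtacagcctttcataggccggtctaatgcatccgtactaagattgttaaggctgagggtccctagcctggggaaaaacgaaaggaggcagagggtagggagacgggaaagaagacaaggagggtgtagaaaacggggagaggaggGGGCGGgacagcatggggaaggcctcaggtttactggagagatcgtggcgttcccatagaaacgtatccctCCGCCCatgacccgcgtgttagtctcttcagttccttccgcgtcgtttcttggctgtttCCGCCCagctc
SRSF3: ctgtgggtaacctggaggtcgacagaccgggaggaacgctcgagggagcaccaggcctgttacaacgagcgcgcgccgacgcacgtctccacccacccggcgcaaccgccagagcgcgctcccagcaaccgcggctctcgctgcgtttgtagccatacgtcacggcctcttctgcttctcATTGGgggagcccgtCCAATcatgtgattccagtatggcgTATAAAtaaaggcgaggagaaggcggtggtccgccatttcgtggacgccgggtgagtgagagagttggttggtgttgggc
The capitals are 3 GC boxes (GGGCGG) in SRSF6 and 3 in SRSF7, and 2 CCAAT boxes (CCAAT) with a TATA box (TATAAA) in SRSF3. RefSeq start windows were found for 31 members, 15 windows for SR genes and 29 for hnRNP genes. Some members gave several windows, which are not independent of each other, so the shares are of windows and not of genes. A CCAAT box lay in 3 SR windows and in 18 hnRNP windows (62.1%), and in 34.61% of all 35116 windows of the same length. A GC box lay in 7 SR windows and 19 hnRNP windows, and in 44.95% of all windows. The ETS motif CCGGAAG lay in 2 SR and 2 hnRNP windows and in 10.26% of all, and TATAAA in 3 SR and 3 hnRNP windows and in 11.53% of all. The CRE motif TGACGTCA and the NRF1 motif were found in no member's window, where 1.85% and 1.24% of all windows held them. All motifs were searched on both strands, and a match is a match of letters only.

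SRSF1, the founding SR protein, had 203, 207 and 203 TPM in H1p43, against 292, 292 and 301 TPM in H1p16. Its log2 fold change was -0.63 ± 0.02, and SRSF2 gave a similar value of -0.61 ± 0.02. TRA2B, which binds GAA-rich enhancers, had 133.3, 133.1 and 129.5 TPM in H1p43, against 172.3, 170.2 and 174 TPM in H1p16, and its paralog TRA2A changed by -0.44 ± 0.03. The H1p43 libraries were again the lower ones without overlap. The smallest called falls of the family were those of SRSF5 and SRSF9, at log2 fold changes of -0.17 each.

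Only 2 SR genes were higher in H1p43 in this test. SRSF4, which has a long arginine-serine domain, had 123.3, 120.7 and 118.6 TPM in H1p43, against 106.2, 103.2 and 95.3 TPM in H1p16. SRSF4 had a log2 fold change of 0.14 ± 0.03 (adjusted p = 0.001 in edgeR). SRSF12 stood at 4.38, 4.39 and 4.56 TPM in H1p43, against 2.51, 2.64 and 3.17 TPM in H1p16. A log2 fold change of 0.56 ± 0.10 made this the largest rise, at the lowest level of any tested member. SRSF12 lay under the level set for named genes and was named after its values were seen.

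Among hnRNP genes, the largest fall was that of HNRNPM, which binds GU-rich RNA. It had 439, 439 and 438 TPM in H1p43, against 709, 701 and 699 TPM in H1p16, a log2 fold change of -0.79 ± 0.02. HNRNPU, a nuclear scaffold protein, had 281, 279 and 282 TPM in H1p43, against 423, 412 and 409 TPM in H1p16, a log2 fold change of -0.67 ± 0.02. HNRNPH1 and HNRNPF bind runs of G. HNRNPH1 had 415, 423 and 421 TPM in H1p43, against 607, 606 and 607 TPM in H1p16, a log2 fold change of -0.64 ± 0.02. HNRNPF had 312, 313 and 315 TPM in H1p43, against 415, 408 and 396 TPM in H1p16, a log2 fold change of -0.49 ± 0.02. All 4 were lower in every H1p43 library than in any H1p16 library.

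The 2 most abundant hnRNP genes changed less. HNRNPA1 had 3811, 3818 and 3813 TPM in H1p43, against 4134, 4133 and 4220.0 TPM in H1p16. That is a log2 fold change of -0.23 ± 0.01. HNRNPA2B1 had 1345, 1343 and 1353 TPM in H1p43, against 1384, 1407 and 1419 TPM in H1p16, a log2 fold change of -0.17 ± 0.02. Their groups did not overlap, at a difference several times smaller than that of HNRNPM. The other 12 called falls of the family lay between -0.40 for HNRNPAB and -0.17 for HNRNPA3. HNRNPL, which binds CA repeats, was the one hnRNP gene higher in H1p43, with 648, 648 and 654 TPM in H1p43, against 555, 559 and 561 TPM in H1p16 and a log2 fold change of 0.11 ± 0.02 (adjusted p = 4.1e-05 in edgeR).

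HNRNPA1L2 is an intronless copy of HNRNPA1, and its groups overlapped, at 18.8, 17.3 and 16.6 TPM in H1p43, against 19.5, 19.4 and 18.8 TPM in H1p16. The coding sequences of the 2 genes were 98.4% identical, with 15 differences over 960 bases. A stretch of both is printed to show how little separates their reads. It covers coding bases 512 to 591, at chr13:52643004-52643083 (+ strand) for HNRNPA1L2 and within chr12:54282415-54282580 (+ strand) for HNRNPA1, on GRCh38 with GENCODE 29 models. Capitals mark the 3 bases at which they differ.
HNRNPA1L2: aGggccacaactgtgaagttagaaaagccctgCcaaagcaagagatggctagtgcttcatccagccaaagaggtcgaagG
HNRNPA1: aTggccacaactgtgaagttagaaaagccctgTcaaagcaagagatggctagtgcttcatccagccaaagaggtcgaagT
The values of HNRNPA1L2 depend on how reads were divided between these copies and are uncertain. HNRNPH2 and HNRNPH1 were 87.6% identical over 1347 coding bases, and values of HNRNPH2, the less abundant of them, carry the same doubt to a lesser degree.

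Other parts of the splicing apparatus were followed in lists. Beside their counts stand the shares of all 14574 genes tested, 35.4% called as lower in H1p43 and 36.4% as higher. Of 42 core spliceosome genes tested, 31 were lower and 1 was higher in H1p43, with a median log2 fold change of -0.20. The largest fall there was SF1, the branch point binding protein, at -0.61 ± 0.03, and the rise was SNRPA, a U1 snRNP protein, at 0.13 ± 0.03. Of 15 SR kinases and nuclear importins, 8 were lower and 2 were higher. CLK3, a kinase of SR proteins, was higher at 0.68 ± 0.06, with 29.1 TPM in H1p43 and 16.8 TPM in H1p16, while the importin TNPO2 was lower at -0.68 ± 0.03. Of 20 hnRNP proteins with other symbols, 13 were lower and 3 were higher. SYNCRIP, which is also called hnRNP Q, was lowest at -0.64 ± 0.02.

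Of 34 other splicing regulators, 22 were lower and 7 were higher in H1p43, where 35.4% and 36.4% of all genes were called. RBM39, an SR-related coactivator, was lowest at -0.97 ± 0.02, and MBNL2, a muscleblind protein, was highest at 2.26 ± 0.16, at only 2.26 TPM in H1p43 and 0.44 TPM in H1p16. All 16 genes of nonsense-mediated decay were lower in H1p43, with a median of -0.38. SMG9, a regulator of the kinase SMG1, had the largest fall at -1.05 ± 0.05. Pluripotency markers moved with these lists, with 10 of 11 lower in H1p43 and a median of -0.43. Of the neuroectoderm markers tested, 5 of 7 were higher and 2 of 7 lower, and the list summed to 484 to 488 TPM in H1p43, against 458 to 496 TPM in H1p16. The fibroblast list summed to 925 to 956 TPM in H1p43 and 889.6 to 932 TPM in H1p16, with 2 of its 10 genes at 0 in every library. The mesendoderm list summed to 45.6 to 45.9 TPM in H1p43, against 77.2 to 79.2 TPM in H1p16. Only 2 of its 12 genes were tested. KDR was lower at -0.98 ± 0.03, with a mean of 40.7 TPM in H1p43 and 74.2 TPM in H1p16, and TBX6 was higher at 0.37 ± 0.15. The trophoblast list summed to 13.2 to 14.1 TPM in H1p43, against 7.17 to 9.49 TPM in H1p16. KRT7 in it was higher at 0.61 ± 0.09, with a mean of 12.4 TPM in H1p43 and 7.52 TPM in H1p16. These 2 sums did not overlap between the groups, but KDR and KRT7 made up most of them. The part of these markers in the splicing factor differences was not tested.

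The second comparison set the 6 LM-Seq libraries of Lane 4, the lane nearest to TruSeq in depth, against the 6 TruSeq libraries. Protocol, lane and the source of the RNA differ together here and cannot be told apart. The SR genes made up 0.682% ± 0.0090 of TPM in Lane 4 (SD, n = 6), 2.27 times the TruSeq mean. The hnRNP genes made up 2.79% ± 0.127 in Lane 4, 2.16 times the TruSeq mean. The ratio of SR to hnRNP transcripts was 0.244 ± 0.011 in Lane 4, between the values of H1p43 and H1p16. As a share of counts, with no scaling by length, the 2 ratios were 1.85 for SR genes and 1.87 for hnRNP genes.

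Per gene, 27 members were higher in Lane 4, 2 were lower and 4 were not called. Of all 13827 genes tested, 71.3% were called, 34.3% as higher and 36.9% as lower. The higher members were 11 SR and 16 hnRNP genes. The median log2 fold change of Lane 4 over TruSeq was 0.96 over SR genes, 1.13 over hnRNP genes and -0.06 over all genes. The groups did not overlap for 27 members, against 53.9% of all genes. With H1p43 alone as TruSeq, 29 members were higher and 2 lower, where 35.5% and 37.8% of all genes were called. With H1p16 alone, 26 were higher and 4 lower, where 33.4% of all genes were called in each direction. These 2 comparisons share the Lane 4 libraries. In the pooled fit no term separates H1p43 from H1p16, so its SE and p also reflect the difference between them. For SRSF7 the SE was 0.20 pooled, against 0.04 with H1p16 alone and 0.04 with H1p43 alone. For SRSF4, by contrast, it was 0.06 in each of these fits.

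TRA2A, a binder of purine-rich enhancers like TRA2B, had the largest rise of any member. It had 638 TPM in the lowest Lane 4 library, a median of 676 TPM and 769.7 TPM in the highest, against 95.4, 93.9 and 90.5 TPM in H1p43 and 115.7, 115.5 and 121.3 TPM in H1p16. Its log2 fold change was 2.75 ± 0.10 (adjusted p = 2.1e-12 in edgeR), and no TruSeq library came near the Lane 4 range. TRA2B rose less, by 1.36 ± 0.10, with 362, 382 and 402 TPM as the lowest, median and highest Lane 4 values.

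SRSF5, an SR protein of exonic enhancers, had 1058 TPM at the lowest, a median of 1159 TPM and 1247 TPM at the highest in Lane 4, against 275, 276 and 271 TPM in H1p43 and 288, 289.7 and 281 TPM in H1p16. Its log2 fold change was 2.12 ± 0.06. SRSF10 stood between 611 and 666 TPM in Lane 4 with a median of 641 TPM, and rose by 1.99 ± 0.15. SRSF1 stood between 649.7 and 707 TPM with a median of 693 TPM, and rose by 1.48 ± 0.12. All these Lane 4 libraries exceeded every TruSeq library.

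The SR genes did not all move this way. SRSF11, an SR-related protein of constitutive splicing, was lower in Lane 4, at 112.4, 120.4 and 128.1 TPM as lowest, median and highest, against 160.5, 159.9 and 159.4 TPM in H1p43 and 170.6, 174 and 176 TPM in H1p16. Its log2 fold change was -0.43 ± 0.06 (adjusted p = 1.8e-05 in edgeR), without overlap. SRSF7, at 361 to 399 TPM in Lane 4, lay between H1p43 and H1p16 and was not called. Against H1p43 alone SRSF7 gave 0.93 ± 0.04, and against H1p16 alone it gave -0.16 ± 0.04, both called. SRSF2 was called at 0.28 ± 0.12 (adjusted p = 0.045 in edgeR), but its groups overlapped, and against H1p16 alone its value was -0.0037 ± 0.04. Leaving out any 1 of 9 libraries, each Lane 4 or H1p43 library, ended the call of SRSF2.

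Among hnRNP genes HNRNPM led. It had 2810.4 TPM at the lowest, a median of 2989 TPM and 3019.7 TPM at the highest in Lane 4, where TruSeq libraries had at most 709 TPM. This made a log2 fold change of 2.38 ± 0.16. The 3 genes of the H group followed. HNRNPH2 stood at 76.5 to 125.05 TPM in Lane 4 with a median of 95.8 TPM, against 20.6, 20.8 and 19.9 TPM in H1p43 and 23.7, 23.5 and 23.1 TPM in H1p16, a log2 fold change of 2.21 ± 0.12. HNRNPH1 stood at 2139 to 2488 TPM in Lane 4 with a median of 2301 TPM and rose by 2.19 ± 0.13. HNRNPH3 stood at 977 to 1199 TPM with a median of 1011 TPM, against 301, 299 and 305 TPM in H1p43 and 320.0, 323 and 322 TPM in H1p16, and rose by 1.81 ± 0.07. In none of these genes did the protocols overlap.

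HNRNPA2B1 rose by 1.76 ± 0.06, with 4189, 4398 and 5105 TPM as the lowest, median and highest Lane 4 values. HNRNPA1 rose by 0.88 ± 0.06, with 6617, 7109 and 7786 TPM. HNRNPC, which binds U-rich RNA, was not called, at 0.04 ± 0.07 over all TruSeq libraries. It was called at 0.23 ± 0.03 over H1p43 alone and at -0.14 ± 0.03 over H1p16 alone. HNRNPL was lower at -0.12 ± 0.04 (adjusted p = 0.025 in edgeR) with overlapping groups. Its adjusted p was 0.12 against H1p16 alone, 0.051 without H1p43 replicate 2 and 0.055 without H1p43 replicate 3.

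**Figure D2:**
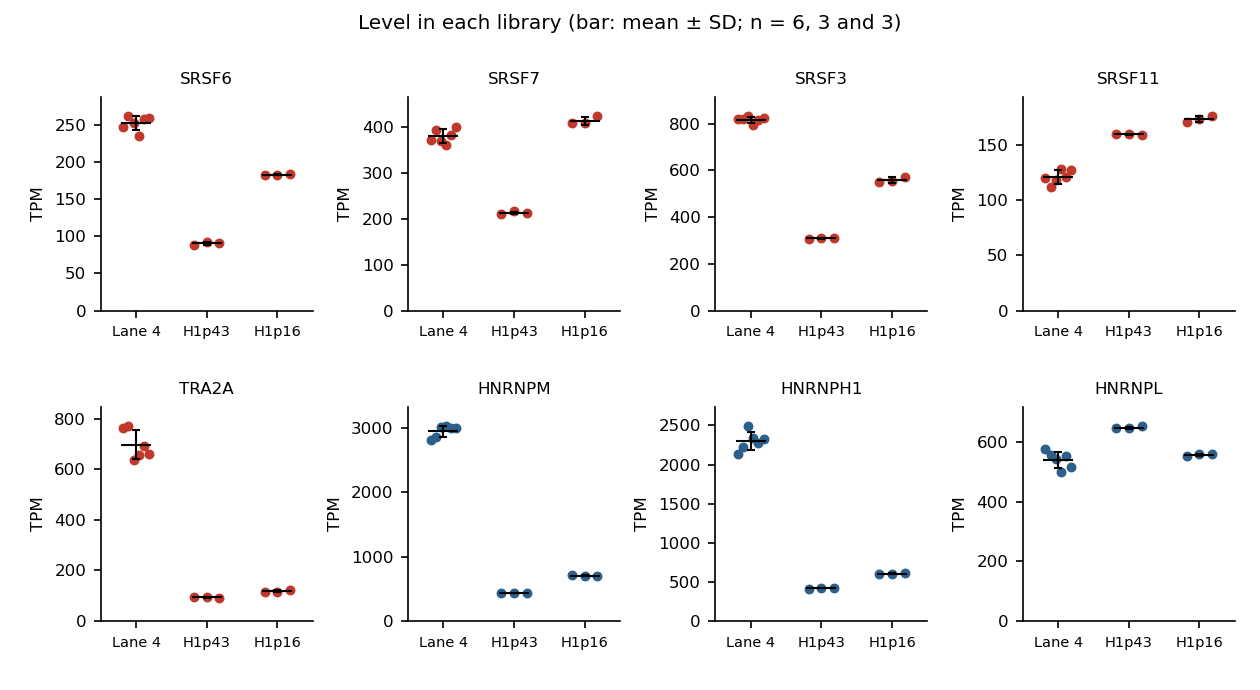
TPM (vertical axes, from 0) of 8 members in each library of Lane 4, H1p43 and H1p16, with bars at the mean ± SD (n = 6, 3 and 3). SRSF6, SRSF7 and SRSF3 separate H1p43 from H1p16, TRA2A, HNRNPM and HNRNPH1 separate Lane 4 from TruSeq, and SRSF11 is lowest in Lane 4.

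Base composition was set beside these values, using the longest RefSeq-matched transcript of GENCODE 29, which was found for 33 members. Across 13512 genes the log2 fold change of Lane 4 over TruSeq fell with GC content, with a Pearson r of -0.54 and a Spearman rho of -0.57. In 10 groups of genes of equal size by GC content, the median ran from 0.52 in the most AT-rich group to -0.94 in the most GC-rich one. Across the 32 members tested and matched, r was -0.15 and rho -0.16. The share of C alone gave r = -0.59 and rho = -0.62 across all these genes, and r = -0.42 and rho = -0.48 across the members. These values are across genes, which share the libraries and are not independent replicates. The members had a median GC content of 42.8%, against 49.2% over all genes. Of the 32 members, 26 lay above the median of their own GC group, by a median of 0.81 over all 32. HNRNPM, at 54.9% GC, lay 2.67 above the median of its GC group, and TRA2A lay 2.40 above.

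**Figure D3:**
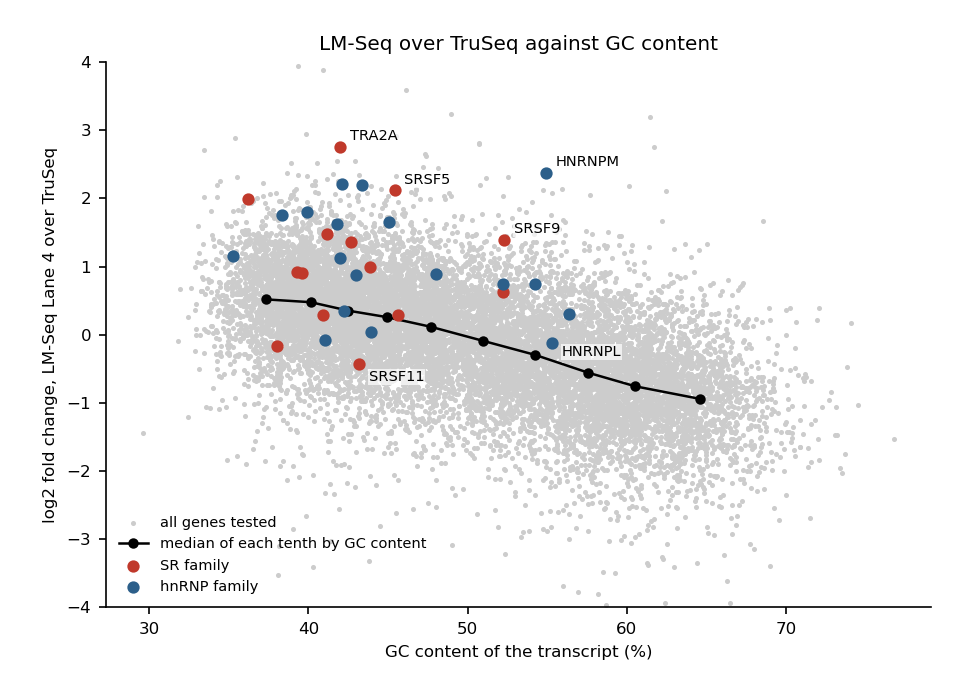
The log2 fold change of Lane 4 over TruSeq (vertical axis, with the few most extreme genes outside the drawn range) against the GC content of the transcript for all genes (grey), with the median of each of 10 GC groups (black), SR genes (red) and hnRNP genes (blue). The black line descends from 0.52 to -0.94, and 26 of 32 members lie above the median of their GC group.

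The same lists were read in the protocol comparison, where 34.3% of all 13827 genes tested were called as higher in Lane 4 and 36.9% as lower. Of 42 core spliceosome genes, 21 were higher and 15 lower in Lane 4, with a median of 0.22. SNRPD1, a core Sm protein, was highest at 1.73 ± 0.07, and LSM7, an Sm-like protein, lowest at -1.78 ± 0.10. Of 14 SR kinases and importins tested, 8 were higher and 3 lower. DYRK1A, a kinase of splicing factors, was highest at 1.37 ± 0.10, and CLK3 lowest at -1.37 ± 0.18. Of 20 hnRNP proteins with other symbols, 12 were higher and 5 lower. HNRPDL, the files' older symbol for HNRNPDL, which the rule on symbols did not catch, was highest at 1.86 ± 0.12, and PCBP4 lowest at -1.39 ± 0.12. Of 34 other splicing regulators, 19 were higher and 6 lower, from PNN, an SR-related coactivator, at 1.84 ± 0.07 to RBFOX3 at -1.44 ± 0.23. Of 16 genes of nonsense-mediated decay, 10 were higher and 3 lower, with UPF2 highest at 1.502 ± 0.12. Pluripotency markers were higher for 8 and lower for 2 of 11, and the fibroblast list summed to 558 to 615 TPM in Lane 4, against 889.6 to 956 TPM in TruSeq. The neuroectoderm list summed to 524 to 554 TPM in Lane 4, against 458 to 496 TPM in TruSeq, and the mesendoderm list to 82.8 to 93.7 TPM in Lane 4, against 45.6 to 79.2 TPM in TruSeq. KDR made up most of the mesendoderm sum, at a mean of 85.4 TPM in Lane 4 and 57.4 TPM in TruSeq. TBX6, the other gene tested there, was lower at -1.68 ± 0.33. The trophoblast list, at 9.03 to 17.8 TPM in Lane 4 and 7.17 to 14.1 TPM in TruSeq, overlapped. The part of these markers in the differences was not tested.

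The third question was whether splicing factor levels depended on how many libraries shared an LM-Seq lane. Over the library numbers that 2 lanes share, 0 members were called in Lanes 2, 3 or 4 against Lane 1, with 32, 33 and 33 members tested. These tests ignored the library number, as did DESeq2 and limma, which also called 0 members. In edgeR no member had an unadjusted p below 0.05, as 1.8%, 1.99% and 1.25% of all genes did in Lanes 2, 3 and 4. The shares of all genes called were 0.0%, 0.0% and 0.0161%. Member log2 fold changes lay between -0.05 and 0.09 in Lane 2, between -0.08 and 0.05 in Lane 3 and between -0.06 and 0.09 in Lane 4. Same-numbered libraries deviated together, so the spread in these tests includes differences between numbers, and small lane differences can be missed. With library number as a block, 2 members were called in Lane 2, 4 in Lane 3 and 2 in Lane 4, where 0.257%, 0.405% and 0.105% of all genes were called. In Lane 2 these were TRA2A at -0.05 and HNRNPA1 at -0.02. In Lane 3 they were TRA2A at -0.08, SRSF1 at -0.04, HNRNPA3 at -0.03 and HNRNPA2B1 at -0.02. In Lane 4 they were HNRNPU at 0.03 and HNRNPA2B1 at 0.02.

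The SR genes summed to 0.683% ± 0.022 of TPM in Lane 1, 0.676% ± 0.021 in Lane 2, 0.669% ± 0.015 in Lane 3 and 0.682% ± 0.0090 in Lane 4 (SD, n = 95, 48, 24 and 6). The hnRNP genes summed to 2.79% ± 0.184 in Lane 1, 2.76% ± 0.190 in Lane 2, 2.85% ± 0.232 in Lane 3 and 2.79% ± 0.127 in Lane 4. The ranges of all 4 lanes overlapped in both sums.

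Within a lane, members varied between libraries beyond counting error. In Lane 1, HNRNPA2B1 had a coefficient of variation of 12.9%, where counting error alone gives 1.09%. HNRNPH3 varied by 14.2% against 2.79%. SRSF8, a low gene, varied by 15.1% against 12.9%, so its spread was close to counting error. The least variable member was HNRNPK, at 4.15% against 2.57%.

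These deviations recurred in another lane. Over the 48 numbers in Lanes 1 and 2, the levels of 32 of 33 tested members correlated positively by library number (one-sided permutation test with 100000 resamples, Benjamini-Hochberg adjusted over all genes). Among all 12605 genes 76.3% did so. The median Pearson r was 0.66 over SR genes, 0.81 over hnRNP genes and 0.38 over all genes. All genes here include those down to a mean of 1 TPM, where counting error is larger, and most members lay far above that level. The part of level in these differences was not tested. The best were HNRNPA2B1, at r = 0.994 and rho = 0.983, HNRNPH3, at r = 0.978 and rho = 0.938, and HNRNPA1, at r = 0.977 and rho = 0.950. Each of these had a p of 1e-05, the smallest these permutations can give, and an adjusted p of 7.57e-05. Without the 2 numbers farthest from the Lane 1 median, r was 0.985 for HNRNPA2B1, 0.955 for HNRNPH3 and 0.950 for HNRNPA1.

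The 3 members that repeated least were among the lower ones in level. SRSF12 gave r = 0.209 and rho = 0.221 (permutation p of r = 0.078, adjusted p = 0.092), SRSF11 gave r = 0.285 and rho = 0.282 (permutation p of r = 0.025, adjusted p = 0.035), and SRSF8 gave r = 0.330 and rho = 0.234 (permutation p of r = 0.011, adjusted p = 0.018). By rho the adjusted permutation p was 0.084 for SRSF12, 0.039 for SRSF11 and 0.071 for SRSF8, so SRSF8 lost its call and 31 members passed. Without the 2 farthest numbers r was 0.088 for SRSF12, 0.257 for SRSF11 and 0.255 for SRSF8, and none of these 3 passed the adjusted threshold. Whether a number marks the same library in both lanes is not stated.

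**Figure D4:**
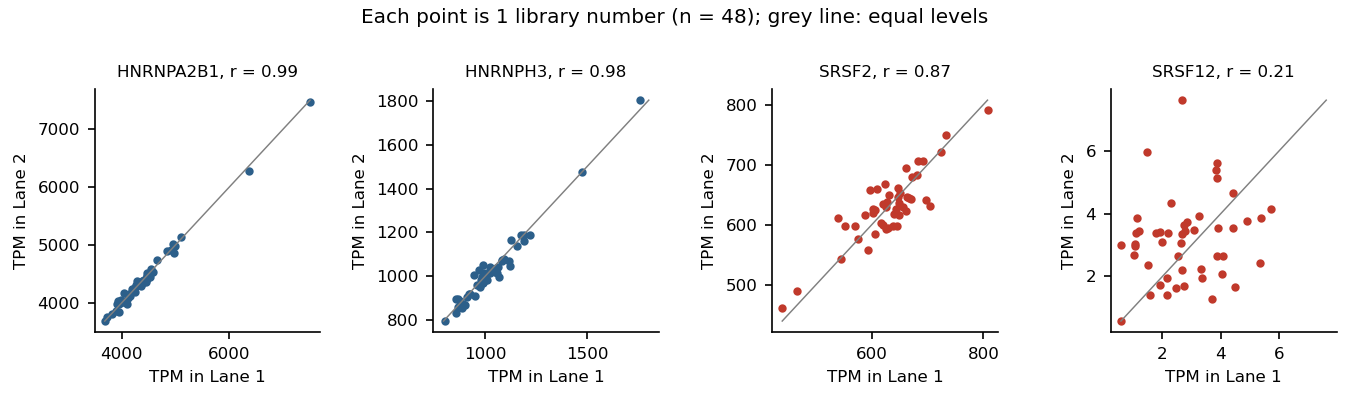
TPM in Lane 2 (vertical axes) against TPM in Lane 1 (horizontal axes) for 48 library numbers and 4 members, with a grey line at equal levels. HNRNPA2B1 follows the line from about 3689 to 7500 TPM at r = 0.99, and SRSF12, at a few TPM, scatters at r = 0.21.

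The deviations were next set against those of HNRNPA2B1, chosen after its values were seen because it repeated best. Over the 95 libraries of Lane 1, 17 of the other 32 tested members correlated positively with HNRNPA2B1 and 8 negatively (two-sided permutation test with 100000 resamples, adjusted over 12606 genes). Among all genes 5.87% did so positively and 21.2% negatively. The 2 families differed in description, with a median r of -0.05 over 14 SR genes, 0.59 over 18 hnRNP genes and -0.10 over all genes. The positive members were 4 SR and 13 hnRNP genes, and the negative ones were 4 of each family.

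HNRNPH3 followed HNRNPA2B1 most closely, at r = 0.952 and rho = 0.931, ahead of HNRNPA1 at r = 0.854 and rho = 0.753, HNRNPU at r = 0.820 and rho = 0.819 and HNRNPM at r = 0.801 and rho = 0.733. Among SR genes SRSF4 was highest, at r = 0.715 and rho = 0.638. SRSF2 ran the other way, at r = -0.792 and rho = -0.726, as did SRSF1 at r = -0.654 and rho = -0.509 and HNRNPL at r = -0.520 and rho = -0.520. Each of these 8 had a permutation p of 1e-05, the smallest possible here, and an adjusted p of 0.000141. Without the 2 libraries farthest from the median of HNRNPA2B1, r was 0.935 for HNRNPH3, 0.806 for HNRNPA1, 0.757 for HNRNPU and 0.750 for HNRNPM. It was 0.667 for SRSF4, -0.718 for SRSF2, -0.557 for SRSF1 and -0.467 for HNRNPL.

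The negative values of TRA2A (r = -0.413), HNRNPUL1 (r = -0.357) and HNRNPK (r = -0.257) did not pass the adjusted threshold without those 2 libraries, at r = -0.250, -0.249 and -0.213. In Lane 2, whose library numbers also occur in Lane 1, HNRNPH3 gave r = 0.972, SRSF2 r = -0.840 and TRA2A r = -0.633 (adjusted permutation p = 0.00033 each). There HNRNPUL1 gave r = -0.380 and HNRNPK r = -0.201, with adjusted permutation p of 0.078 and 0.39. Library total against HNRNPA2B1 gave r = -0.065 and rho = -0.171 over the 95 libraries (permutation p = 0.53 and 0.097, r = -0.099 without the 2 farthest). The part of depth in these deviations was not tested. Outside the families, the genes most like HNRNPA2B1 in Lane 1 were NCL, the nucleolar protein nucleolin, at r = 0.951, EIF3A at 0.889, NASP at 0.888 and PPM1G at 0.879. The most opposed were MARCKSL1 at -0.826, ACTB at -0.823, ZIC2 at -0.813 and TUBB at -0.810.

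The r with HNRNPA2B1 was set beside the purine content of the transcript. Across all 12329 genes with a matched transcript the 2 had a Pearson r of 0.463 and a Spearman rho of 0.432. Across 3310 genes of at least 50 TPM these were 0.606 and 0.605. Across 31 members they were 0.692 and 0.704. GC content gave a Pearson r of 0.070 across the same 3310 genes and 0.102 across the 31 members. These are descriptions across genes that share the same 95 libraries. The median purine content was 50.8% over SR genes, 53.96% over hnRNP genes and 50.6% over all genes. It was 58.2% in HNRNPM, 55.3% in HNRNPH3, 56.4% in SRSF4 and 48.2% in SRSF2. SRSF11, at 54.97%, had an r of -0.08.

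Coding stretches of 120 bases show the contrast between the member at the upper end and 2 at the lower. Each is the stretch of its coding sequence richest in purines, from the same GENCODE 29 transcripts on GRCh38, all within coding exons. They lie within chr10:68341623-68341820 (+ strand) for HNRNPH3, chr17:76736849-76736968 (- strand) for SRSF2 and chr17:58006411-58006946 (- strand) for SRSF1. Where a span exceeds 120 bases it crosses an intron, which is left out. Capitals mark runs of at least 6 purines.
HNRNPH3: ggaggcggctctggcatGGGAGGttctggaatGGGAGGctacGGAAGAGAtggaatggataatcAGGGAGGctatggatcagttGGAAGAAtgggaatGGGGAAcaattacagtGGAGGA
SRSF2: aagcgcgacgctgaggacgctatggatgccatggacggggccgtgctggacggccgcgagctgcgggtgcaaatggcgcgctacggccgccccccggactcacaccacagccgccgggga
SRSF1: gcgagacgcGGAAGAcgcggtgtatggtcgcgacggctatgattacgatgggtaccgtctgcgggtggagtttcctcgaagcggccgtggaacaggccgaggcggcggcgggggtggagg
Purines made up 71.7% of the HNRNPH3 stretch, 55.8% of that of SRSF2 and 62.5% of that of SRSF1. Runs of at least 6 purines covered 46 bases in HNRNPH3, against 0 in SRSF2 and 6 in SRSF1. Over the whole coding sequence the purine content was 61.6%, 48.1% and 54.4% in the same order.

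**Figure D5:**
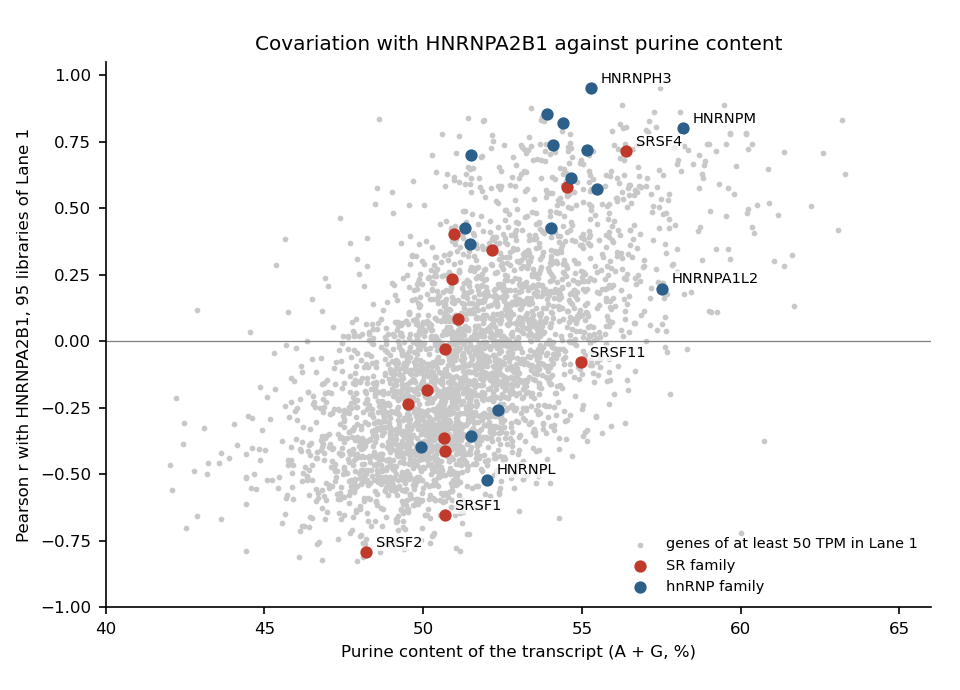
Pearson r with HNRNPA2B1 over 95 Lane 1 libraries (vertical axis) against the purine content of the transcript (horizontal axis, drawn from 40 to 66%) for genes of at least 50 TPM (grey), SR genes (red) and hnRNP genes (blue). HNRNPH3, HNRNPM and SRSF4 stand at the upper right and SRSF2, with 48.2% purines and r = -0.79, at the lower left. SRSF11, at 54.97% purines, lies near 0.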

How the data were processed

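RNA-seq libraries of H1 cells were read as 2 tables over all genes. The submitters' processing notes name hg19 as the build and list RSEM 1.2.3, Bowtie 0.12.8 and CASAVA 1.8.2. The authors deposited expected counts, estimated by RSEM, and they deposited TPM, the same kind of estimate scaled by transcript length and library total. Use of strand in the counting is not given in sources used here, so overlapping and antisense genes are uncertain, as are near-identical copies.

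Counts were first made whole by rounding and then tested in edgeR 4.0.16 (R 4.3.3) after filterByExpr and TMM normalization. All genes were fitted and adjusted together by the Benjamini-Hochberg method, with a threshold of 0.05. Standard errors come from the fold change and its F statistic. Groups follow the titles. The alternatives tried were no filter, RLE size factors, DESeq2 1.42.0, limma 3.58.1 on log2(TPM + 1) and log2(TPM + 0.1), a 1.5-fold minimum, thinned counts, other lanes, single TruSeq groups, omitted libraries and a block on library number. Correlations used log2(TPM + 1), a mean of at least 1 TPM and 100000 permutations in Python 3.11.15 with scipy 1.17.1.

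Same-numbered libraries deviated together from their lane means, with correlations against Lane 1 of 0.168 to 0.638 in Lane 2 and of 0.226 to 0.551 in Lane 3. In Lane 4 they were 0.359 to 0.437. The numbers therefore pair the lanes, and the blocked values stand beside the others. No 2 libraries of a group agreed within counting noise, the lowest chi-square per degree of freedom being 1.29. Depth limits the precision of low genes, and counting errors cover counting alone.

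The members, the lists and the tests were chosen with earlier results of these data known. Within each family, values are given for up to 4 called rises and 4 called falls without overlap whose higher group averaged 5 TPM or more, and for SRSF1, TRA2B, HNRNPA1 and HNRNPA2B1. For repeatability the 3 best and 3 worst members are named, and from each list the largest called rise and fall are named where they add to the account. Sequences are credited to RefSeq (promoters, GRCh38.p14) and GENCODE 29 (coding sequences) and were matched by symbol or transcript. The tests were run on simulated counts with known changes. For H1p43 against H1p16, over 14574 genes, 96 of 100 genes changed 2-fold and 83 of 100 changed 1.5-fold were recovered. For Lane 4 against TruSeq, over 13827 genes, 86 and 66 were recovered. Of the unchanged genes, 20 of 14374 and 8 of 13627 were called in these 2 comparisons. For Lane 4 against Lane 1, over 12419 genes, 68 and 56 of 100 were recovered. Few genes were changed in the simulated counts, where 71.8% and 71.3% of all genes were called in the first 2 comparisons of the data. Normalization under such wide change was not tested.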

Additional observations from a re-analysis of the deposited data

How the results depend on the processing

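Under every alternative run for H1p43 against H1p16 other than the 1.5-fold minimum, 33 members were called, and leaving out any library left 33; with that minimum, 9 were called. For Lane 4 against TruSeq the count of 29 became 27 to 29 when a library was left out. The values that changed sign with H1p16 as the only TruSeq group were -0.0037 for SRSF2, -0.16 for SRSF7, -0.14 for HNRNPC and 0.13 for SRSF12, which was not called in either fit, and the cause was not tested. HNRNPA0, not called in edgeR over all TruSeq libraries, was called at -0.11 in limma with either pseudocount and at -0.21 against H1p16 alone. Against H1p43 alone HNRNPA0 had the other sign, at 0.07 ± 0.04, and was not called. SRSF2 also lost its call with no filter on low counts (adjusted p = 0.073) and with other lanes in place of Lane 4. As shares of expected counts, the ratio of SR genes was 0.698 for H1p43 over H1p16 and 1.85 for Lane 4 over TruSeq, and that of hnRNP genes was 1.87 for Lane 4 over TruSeq, because no length scaling enters.

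For the lanes, the unblocked count was 0 members. The block on library number gave 2 members in Lane 2, 4 in Lane 3 and 2 in Lane 4. The shares of all genes called with the block were 0.257%, 0.405% and 0.105%. With all libraries of both lanes, 2 members were called in Lane 3 against Lane 1, SRSF1 at -0.086 and TRA2A at -0.14. That fit did not match library numbers, so differences between numbers enter it, and no share of all genes stands beside it. In H1p43 and H1p16 same-numbered libraries did not deviate together (r from 0.0094 to 0.044), and the block left 33 members called. Members correlated with HNRNPA2B1 in either direction numbered 25, 24 by Spearman, 22 without the 2 farthest libraries and 18 in Lane 2. All genes called positive and negative numbered 740 and 2670 of 12606 in Lane 1, and 655 and 2046 by Spearman. They numbered 634 and 2015 without those libraries, and 583 and 1544 of 12598 in Lane 2. In Lane 2 the positive members were 2 SR and 11 hnRNP genes, and the negative ones 3 and 2. The 3 alternatives to the first count were added after seeing the data. Depth limits what Lane 1 shows for SRSF8 and SRSF12.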
